A study of Mus musculus with 9 samples.

Results

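The synaptic vesicle and exocytosis machinery was examined through 53 genes whose products fill, tether, prime, fuse or retrieve synaptic vesicles. The list was drawn up by name with earlier results of these data known. All 53 were found in the deposited table of 18275 genes, and all 53 had a mean of at least 10 normalised counts over the 9 libraries, the minimum that left 16196 genes for testing. RNA came from dissected hippocampi of adult male mice of the C57BL/6N strain, 1 library per animal. The mutant group (Nestin;BrafKE/+, n = 4, genotype label K499E) carried 1 Cre-dependent Braf allele for a more active kinase, switched on by Nestin-Cre in neural stem cells. Neurons and glia both descend from these cells, so the mutation was not limited to the neurons in which most of these genes are used. The control group (Braf+/+, n = 5, genotype label WT) consisted of littermates, and the labels do not give whether they carried Nestin-Cre.

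Synaptic vesicles are loaded with transmitter by transporters in their membrane, held at the active zone by large scaffolds, and primed when SNARE proteins of the vesicle and the plasma membrane begin to zip together. Complexins hold the primed complex, and synaptotagmins sense calcium and trigger fusion, after which dynamin, amphiphysin and synaptojanin recover the membrane. BRAF acts upstream of MEK and ERK, and ERK is known to phosphorylate synapsin, a protein that ties vesicles to one another. ERK also activates transcription factors of the ETS family, which bind DNA around a GGAA core.

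The promoters of 3 members with an adjusted p under 0.05 are shown here as background on where such factors can bind. Binding was not measured. Syt4 and Syt12, which also had an adjusted p under 0.05, are not shown. Each is the 250 bases before the RefSeq start site, read 5′ to 3′ on the strand of the gene in GRCm38.p6, with the core GGAA and its reverse complement TTCC in capitals. Synj2 lies at chr17:5975330-5975579 (plus strand), Baiap3 at chr17:25256365-25256614 (minus strand) and Cplx2 at chr13:54302306-54302555 (plus strand). These RefSeq start sites need not be the gene starts given below from Gencode on GRCm39. Whether they are used in the hippocampus was not tested.
Synj2: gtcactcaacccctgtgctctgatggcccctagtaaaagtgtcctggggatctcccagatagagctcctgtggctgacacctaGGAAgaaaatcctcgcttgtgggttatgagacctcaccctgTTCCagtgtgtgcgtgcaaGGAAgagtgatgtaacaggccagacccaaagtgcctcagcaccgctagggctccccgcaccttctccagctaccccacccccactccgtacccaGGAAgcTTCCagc
Baiap3: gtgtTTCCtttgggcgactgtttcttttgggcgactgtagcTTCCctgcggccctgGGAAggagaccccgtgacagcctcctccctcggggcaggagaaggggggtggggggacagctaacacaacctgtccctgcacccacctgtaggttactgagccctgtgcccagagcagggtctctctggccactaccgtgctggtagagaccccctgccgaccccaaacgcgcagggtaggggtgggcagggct
Cplx2: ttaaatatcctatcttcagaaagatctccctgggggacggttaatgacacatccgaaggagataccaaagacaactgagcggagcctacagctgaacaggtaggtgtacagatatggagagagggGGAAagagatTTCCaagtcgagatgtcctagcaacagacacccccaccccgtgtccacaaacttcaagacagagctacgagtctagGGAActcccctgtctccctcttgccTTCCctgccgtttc

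Capitals mark 5 cores in Synj2, 3 in Baiap3 and 4 in Cplx2, and such a core is common: 92.9% of the promoters of 11984 tested genes held at least 1, as did 90.2% of the 41 members with an entry. Other motifs were searched on both strands in the same windows. The cyclic AMP response element TGACGTCA was in 2.65% of all promoters, its core TGACG, which lies within it, in 26.0%, the AP-1 motif TGANTCA in 4.21%, the EGR motif GCGNGGGCG in 8.77% and the GC box GGGCGG in 57.6%. Among the 41 members the shares were 2.44%, 17.1%, 4.88%, 14.6% and 63.4% in the same order. None of these 5 motifs was found in the 3 promoters printed. The GC content was 57.6% for Synj2, 64.4% for Baiap3 and 50.8% for Cplx2, against a median of 59.6%.

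Values are the normalised counts of the authors, adjusted for batches and given here per library in the order of replicate numbers. The limma fit below takes no account of that earlier adjustment, so its p-values may be too small. The libraries were grouped by name into 3 series, which entered the fit as a term. Series A holds Nestin;BrafKE/+ replicate 1 with Braf+/+ replicates 1, 2 and 3. Series B holds Nestin;BrafKE/+ replicates 2 and 3 with Braf+/+ replicate 4, and C Nestin;BrafKE/+ replicate 4 with Braf+/+ replicate 5. Series A joins 2 name prefixes, that of Braf+/+ replicates 1 and 2 and that of Nestin;BrafKE/+ replicate 1 and Braf+/+ replicate 3. With the 4 prefixes as the term, 2 members had an adjusted p under 0.05 in place of 5. Totals per library ran from 19551300 to 20091500, and since the values no longer count reads, the sequencing depth behind them is unknown. Braf itself, whose value does not show which allele was read, averaged 2264 ± 144 (SD, n = 4) in the mutants against 2786 ± 153 (SD, n = 5), which is -0.30 on the log2 scale (limma, adjusted p = 0.0378). The 8 genes that mark hippocampal tissue had a summed level of 39139 to 41850 in the mutants and 35347 to 39131 in the controls, and 2 of them passed the test, Wfs1 higher (log2 fold change 0.61) and Neurod2 lower (-0.53). Choroid plexus transcripts differed widely between libraries, with a summed level of 8 markers from 1521 to 24722 in the mutants and from 4796 to 392375 in the controls.

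The 2 groups were compared to ask whether the mutant allele altered transcripts of the release machinery in the hippocampus. Most of these genes differed little between the groups. Of the 53 members, 5 (9.43%) had an adjusted p under 0.05, of which Synj2, Syt12 and Baiap3 rose and Cplx2 and Syt4 fell in Nestin;BrafKE/+. Over all genes tested the share was 2.88%, with 1.52% higher and 1.36% lower. Because the members were chosen with earlier results known, their shares here and below are descriptive and do not test the machinery as a whole. The members are more abundant than most genes, and the share depended on abundance. Among members with a mean of 1000 or more, 3 of 41 (7.32%) passed, against 4.81% of all 4470 such genes, and below that mean 2 of 12 (16.7%) passed, against 2.14% of 11726.

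Without adjustment, p was under 0.05 for 13 members (24.5%), against 18.5% of all genes tested, and 9 of the 13 had a negative fold change. Mutant and control values were fully separate for 12 members (22.6%), against 15.7% of all genes. Both shares depended on abundance as well. At a mean of 1000 or more the unadjusted share was 19.5% of members against 25.3% of all such genes, and the separate share 19.5% against 21.4%, so the members were below the background there. Among the 12 less abundant members the shares were 41.7% against 15.9% and 33.3% against 13.6%. The members as a whole lay close to no difference, with a median log2 fold change of -0.026 (0.00033 over all genes) and a median absolute value of 0.065 (0.12 over all genes). At a mean of 1000 or more that absolute value was 0.058 for members and 0.081 for all genes. Negative values were found for 32 members and positive values for 21. For 33 of the 48 members that did not pass, the 95% interval of the log2 fold change lay within 0.25 of zero on either side. Over all genes this held for 4172 of 16196. It depended on abundance: all 33 were among the 41 members with a mean of 1000 or more, where 2707 of all 4470 such genes lay within the bound.

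**Figure D1:**
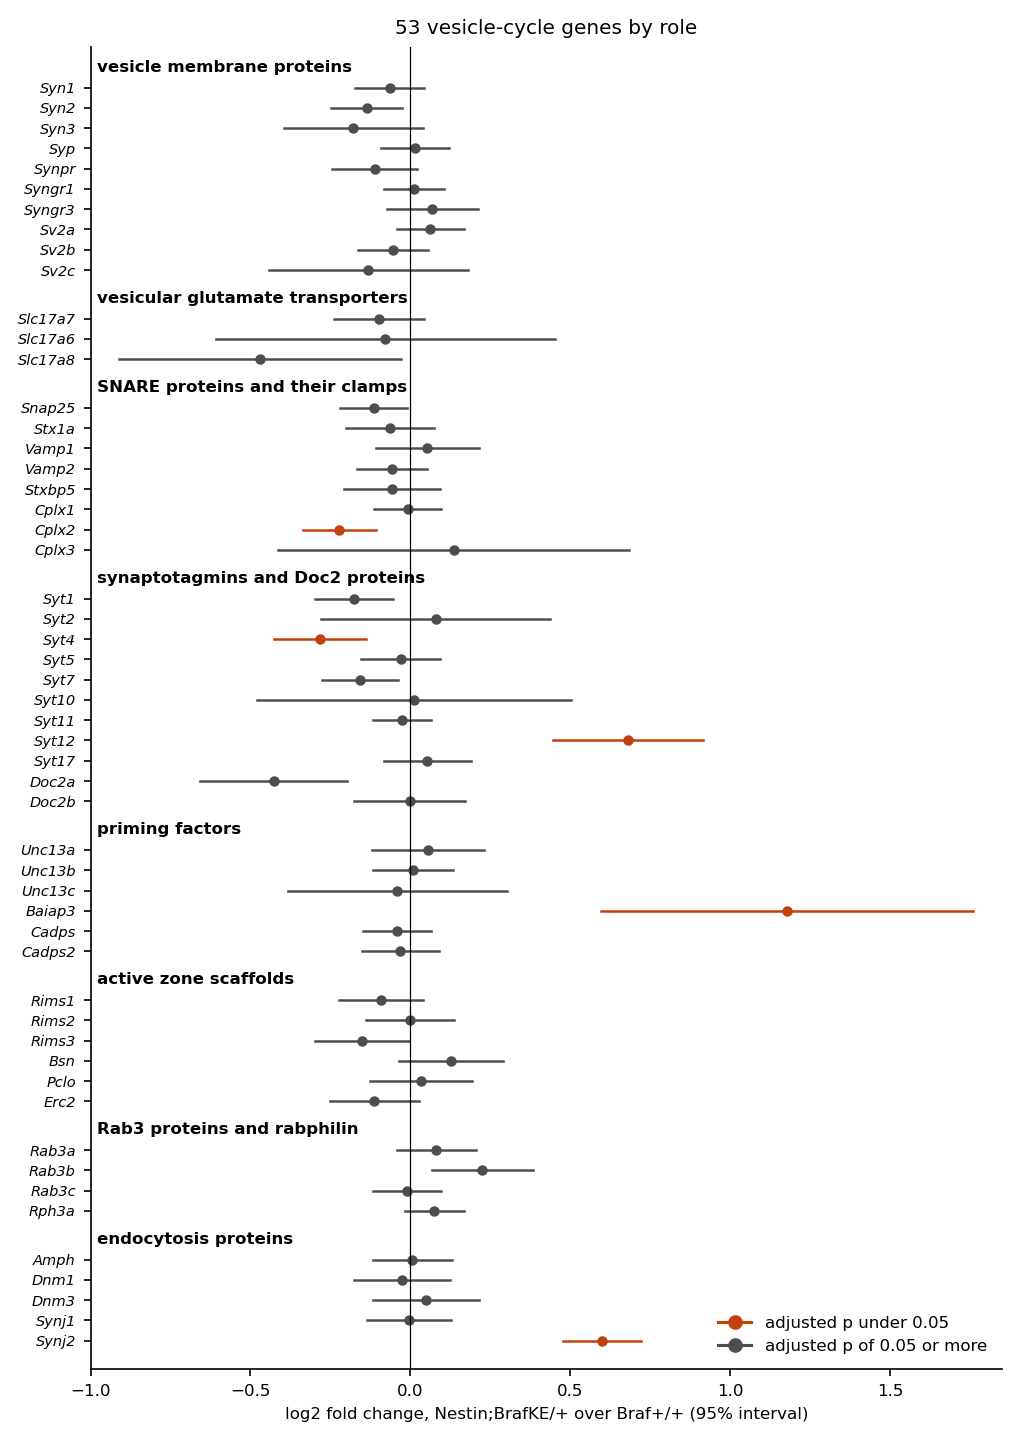
Log2 fold change of each of the 53 members, Nestin;BrafKE/+ (n = 4) over Braf+/+ (n = 5), from limma with the series of library names as a term, grouped by role. Points are estimates and lines are 95% intervals. The 5 members with an adjusted p under 0.05 are in orange: Synj2, Syt12 and Baiap3 lie to the right of zero and Cplx2 and Syt4 to the left.

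Among the 10 vesicle membrane proteins, which include the synapsins, synaptophysin, the synaptogyrins and the SV2 family, none passed the threshold, and 1 had an unadjusted p under 0.05. Synaptophysin (Syp), the most abundant of them by mean value and a cholesterol-binding protein of the vesicle membrane, measured 20853, 21617, 22098 and 21326 in the mutants and 21985, 20357, 22029, 20517 and 21407 in the controls. The ranges overlapped almost fully, and the log2 fold change of 0.01 had a 95% interval from -0.09 to 0.12. Synapsin 2 (Syn2) had the lowest unadjusted p of the group, with a log2 fold change of -0.14 (SE 0.05) and an adjusted p of 0.179. Its ranges of 11526 to 12232 in the mutants and 12163 to 13733 in the controls overlapped slightly. Synapsin 1 had a value of -0.06 and synapsin 3, far less abundant, of -0.18. The other 6, Synpr, Syngr1, Syngr3, Sv2a, Sv2b and Sv2c, ran from -0.13 to 0.07.

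None of the 3 vesicular glutamate transporters passed. Slc17a7 encodes VGLUT1, the main transporter of hippocampal pyramidal and granule cells. It measured 19732, 21856, 18984 and 19651 in the mutants and 23358, 19935, 21427, 20736 and 21862 in the controls. The groups overlapped, with a log2 fold change of -0.10 (95% interval -0.24 to 0.04, adjusted p = 0.457). Slc17a6 encodes VGLUT2, which is used mostly by neurons of the thalamus and brainstem. Its values of 338, 225, 358 and 265 in the mutants lay inside the control values of 183, 330, 414, 325 and 338, and its interval was wide, from -0.61 to 0.45 on the log2 scale. Slc17a8, which encodes VGLUT3, found in some interneurons and serotonergic fibres, was the member with the most negative estimate (-0.47, SE 0.20, adjusted p = 0.240), at 73.9 to 111 in the mutants and 103 to 173 in the controls.

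Among the 8 SNARE proteins and the proteins that clamp them, complexin 2 (Cplx2) was the 1 that passed. Cplx2 (ENSMUSG00000025867, chromosome 13, 54519154 to 54531730, plus strand, GRCm39) binds the assembled SNARE complex of the primed vesicle. Its values were 23792, 26219, 25202 and 25296 in Nestin;BrafKE/+ and 30773, 28896, 29761, 27972 and 29095 in Braf+/+. Every mutant library was below every control, and the mutant of series A was the lowest. Cplx2 fell from a mean of 29300 ± 1043 (SD, n = 5) in controls to 25127 ± 1001 (SD, n = 4), or by 0.22 in log2 units (SE 0.05, limma, adjusted p = 0.0478). Within series the differences were -0.32 (A), -0.12 (B) and -0.20 (C). The call was at the edge of the threshold. It was lost whichever library was left out, with an adjusted p from 0.0568 without Nestin;BrafKE/+ replicate 2 to 0.25 without Nestin;BrafKE/+ replicate 1, and under 6 of the 12 other settings.

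Its paralogue complexin 1 (Cplx1) measured 8572, 8973, 8782 and 8403 in the mutants and 8660, 8583, 9035, 8349 and 9020 in the controls, with a log2 fold change of -0.01 (95% interval -0.11 to 0.10). The ranges overlapped. Snap25, the plasma membrane SNARE that contributes a pair of helices to the fusion complex, was at 42471, 43532, 43748 and 43568 against 48100, 48418, 45145, 46277 and 46689. Each mutant value was under the lowest control, but the difference was small, at -0.12 (SE 0.05), and did not pass (adjusted p = 0.223). The vesicle SNARE Vamp2 measured 15432, 15256, 15390 and 16351 in the mutants and 16051, 16907, 15917, 16844 and 15504 in the controls. Its groups overlapped, at -0.06 (95% interval -0.17 to 0.05). Vamp1, the synaptobrevin more used in spinal cord and brainstem, measured 2310, 2504, 2473 and 2286 against 2389, 2089, 2532, 2129 and 2411, also overlapping, at 0.05 (95% interval -0.11 to 0.22). Syntaxin 1A (Stx1a), tomosyn (Stxbp5) and Cplx3 had log2 fold changes of -0.06, -0.06 and 0.14, the last with a wide interval from -0.41 to 0.68 and means of 116 in mutants and 108 in controls.

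The 11 synaptotagmins and Doc2 proteins showed differences in both directions: Syt12 rose, Syt4 fell, and Syt1, Syt7 and Doc2a had non-overlapping lower values that did not pass. Syt12 (ENSMUSG00000049303, chromosome 19, 4495157 to 4527880, minus strand, GRCm39) encodes a synaptotagmin whose C2 domains do not bind calcium and that protein kinase A phosphorylates. It measured 702, 787, 780 and 829 in the mutants and 553, 413, 538, 469 and 449 in the controls. The lowest mutant library stood well above the highest control. The mutant mean of 774 ± 52.9 (SD, n = 4) compared with 485 ± 59.5 (SD, n = 5) in controls, a rise of 0.68 in log2 units (SE 0.11, adjusted p = 0.00964). The series gave 0.50 (A), 0.74 (B) and 0.88 (C). Leaving out Braf+/+ replicate 4, the only control of series B, gave 0.65 with an adjusted p of 0.0765, while the other 8 such fits and all 12 other settings kept the call.

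Syt4 (ENSMUSG00000024261, chromosome 18, 31570857 to 31580794, minus strand, GRCm39) encodes a synaptotagmin of dense-core vesicles, where it is known to affect the release of neuropeptides and BDNF. Its values were 2728, 2342, 2563 and 2631 in Nestin;BrafKE/+ and 3102, 3076, 2962, 3406 and 3033 in Braf+/+. The groups did not overlap, and the libraries of series B held both the lowest and the highest value. Syt4 averaged 2566 ± 164 (SD, n = 4) in mutants and 3116 ± 171 (SD, n = 5) in controls, a fall with an estimate of -0.28 (SE 0.07, adjusted p = 0.0474). Series A, B and C gave -0.16, -0.48 and -0.20. Leaving out any 1 library ended the call (adjusted p from 0.0564 without Braf+/+ replicate 3 to 0.238 without Braf+/+ replicate 4, where the log2 fold change was -0.18). With a choroid plexus score as a covariate, a setting added after the data had been seen, it was -0.22 (adjusted p = 0.111).

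Doc2a encodes a high-affinity calcium sensor for spontaneous and delayed glutamate release. It measured 230, 223, 189 and 197 in the mutants and 273, 278, 266, 292 and 298 in the controls. The groups were separate, and the log2 fold change of -0.43 (SE 0.10) missed the threshold narrowly (adjusted p = 0.0565). Series A, B and C gave differences of -0.24, -0.51 and -0.59. Doc2a passed in 3 of the 12 other settings, among them a minimum mean of 50 in place of 10 (adjusted p = 0.0497). It passed in 0 of 9 fits that left out 1 library (adjusted p from 0.0738 to 0.245).

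Synaptotagmin 1 (Syt1), the sensor for fast synchronous release, measured 27226, 27072, 26022 and 27017 in the mutants against 31404, 31611, 27618, 31004 and 30132 in the controls. All mutant values were lower, with the closest control in series A, and the log2 fold change was -0.18 (SE 0.06, adjusted p = 0.123). Syt7, the slower sensor used in facilitation and asynchronous release, measured 5413, 5646, 5212 and 5781 against 6299, 5881, 6359, 6341 and 5859. The groups were separate by a small gap, at -0.16 (SE 0.05, adjusted p = 0.153), and within series the difference was near zero in C (-0.02). Syt2, the fast sensor of brainstem and many parvalbumin neurons, measured 547, 572, 784 and 529 against 522, 536, 717, 457 and 645. Its groups overlapped, with a log2 fold change of 0.08 and an interval from -0.28 to 0.44. The other 5, Syt5, Syt10, Syt11, Syt17 and Doc2b, lay between -0.03 and 0.05 and did not pass. The interval was narrow for the abundant Syt11 (-0.12 to 0.07) and wide for Syt10 (-0.48 to 0.50), which had a mean of 77.5 in the controls.

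**Figure D2:**
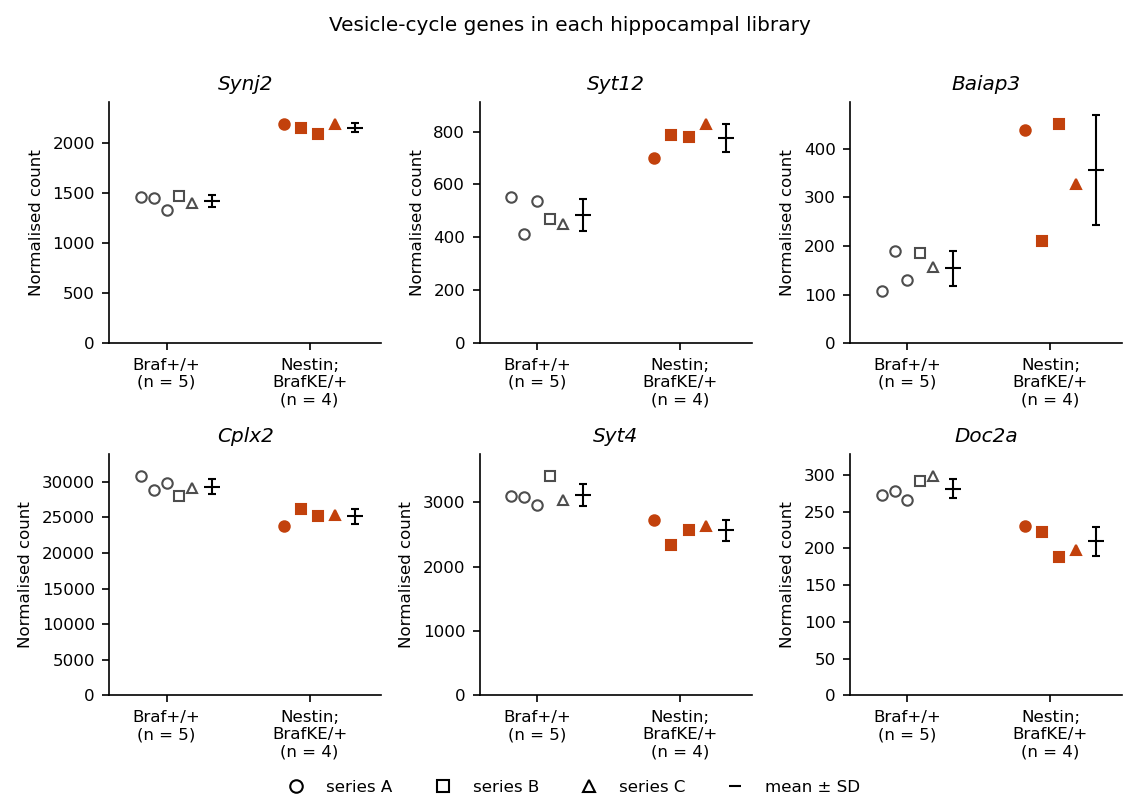
Normalised counts per library of the 5 members with an adjusted p under 0.05 and of Doc2a (adjusted p = 0.0565), each axis starting at zero. Open grey symbols are Braf+/+ (n = 5), filled orange symbols Nestin;BrafKE/+ (n = 4), shapes give the series of library names, and bars are mean ± SD. The groups are separate in all 6 panels, and relative to the mean the mutants spread most for Baiap3 (SD 31.7% of the mean).

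Of the 6 priming factors, Baiap3 rose and the other 5 stayed near zero. Baiap3 (ENSMUSG00000047507, chromosome 17, 25461632 to 25475491, minus strand, GRCm39) is a relative of the Munc13 proteins that takes part in dense-core vesicle traffic. It measured 440, 210, 451 and 327 in the mutants and 106, 189, 130, 186 and 157 in the controls. The groups did not overlap, but the mutants differed among themselves by more than the controls, and replicate 2 was only a little above the highest control. The mean was 357 ± 113 (SD, n = 4) against 154 ± 35.6 (SD, n = 5), and the log2 fold change of 1.18 (SE 0.26, adjusted p = 0.0425) was the largest among the members. It was 1.67 within A, 0.72 within B and 1.05 within C.

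The call for Baiap3 held in 2 of 9 fits that left out 1 library, which dropped Nestin;BrafKE/+ replicate 2 (adjusted p = 0.00970) or Braf+/+ replicate 2 (0.0471). Dropping a mutant ended it for replicate 1 (log2 fold change 0.87, adjusted p = 0.241), for replicate 3 (0.105) and for replicate 4 (0.0896). Dropping a control ended it for replicates 1 (0.0630), 3 (0.0699), 4 (0.0938) and 5 (0.0884). Of the 12 other settings 3 ended it, 4 name prefixes as the term (0.110), array weights (0.0544) and robust eBayes (0.0777). The thalamic and septal marker Zic1, named after its values were seen, was also high in Nestin;BrafKE/+ replicates 1 and 3, at 1229 and 1127, against 344 and 409 in replicates 2 and 4. In the controls Zic1 measured 293, 448, 161, 388 and 553. Of the 7 thalamus markers none passed, 4 had positive and 3 negative estimates with a median of 0.02, and the other markers included Tcf7l2 at -0.15, Lef1 at -0.29 and Rora at -0.0098. Their summed level, Zic1 included, was 2764 to 4425 in the mutants and 2548 to 3431 in the controls. The part of such tissue in the Baiap3 values was not tested.

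Unc13a, which encodes Munc13-1, the main priming factor of excitatory synapses, measured 6503, 7796, 6794 and 7254 in the mutants and 7760, 6267, 7029, 6426 and 6637 in the controls. The ranges overlapped, with a log2 fold change of 0.05 and an interval from -0.12 to 0.23. Unc13b, Unc13c, Cadps and Cadps2, the last 2 of which encode CAPS proteins of dense-core vesicle priming, lay between -0.04 and 0.01.

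None of the 6 active zone scaffolds passed. Bassoon (Bsn), the largest of them by mean value and an organiser of the presynaptic matrix, measured 8311, 8379, 8076 and 7263 in the mutants and 6977, 7890, 6828, 6914 and 8058 in the controls. The groups overlapped and the direction was not the same in all series (0.20 in A, 0.25 in B and -0.15 in C), with a pooled value of 0.13 (SE 0.07, adjusted p = 0.393). Rims3, a short RIM protein without the Rab3-binding part, measured 1103, 1019, 1161 and 1151 against 1171, 1305, 1217, 1273 and 1184. The groups were separate by 1 narrow gap, at -0.15 (SE 0.07, adjusted p = 0.261). Rims1, Rims2, Pclo and Erc2 had log2 fold changes from -0.11 to 0.03.

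The 4 genes of the Rab3 group, which help bring vesicles to the active zone, gave positive values for 3 members and no call. Rab3b measured 971, 950, 1057 and 1023 in the mutants and 800, 943, 849, 851 and 836 in the controls. The groups were separate, with Braf+/+ replicate 2 close below the lowest mutant, and the log2 fold change was 0.23 (SE 0.07, adjusted p = 0.126). Rabphilin (Rph3a), which binds Rab3 on the vesicle, also had non-overlapping higher values, 5951 to 6135 against 5637 to 5866, with a small log2 fold change of 0.07 (SE 0.04, adjusted p = 0.380). Rab3c, the most abundant of the 4 by mean value, measured 11310, 10502, 10876 and 10726 against 10693, 11229, 10396, 11266 and 11058. It overlapped almost fully, at -0.01 (95% interval -0.12 to 0.10), and Rab3a was at 0.08 (95% interval -0.04 to 0.21).

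Of the 5 endocytosis genes, synaptojanin 2 (Synj2) gave the clearest difference among the members and the other 4 gave none that passed. Synj2 (ENSMUSG00000023805, chromosome 17, 5991555 to 6094586, plus strand, GRCm39) encodes a phosphoinositide phosphatase that acts on the membrane during clathrin-mediated uptake and is found outside neurons too. It measured 2182, 2147, 2084 and 2185 in Nestin;BrafKE/+ and 1459, 1449, 1327, 1465 and 1396 in Braf+/+. The libraries within each group were close together and a wide gap lay between the groups. Mutants averaged 2149 ± 46.9 (SD, n = 4) and controls 1419 ± 58.3 (SD, n = 5), a rise of 0.60 in log2 units (SE 0.06, 95% interval 0.48 to 0.72, adjusted p = 0.00106). The rise was alike in size within series (A 0.63, B 0.53, C 0.65), and it passed in all 9 fits that left out 1 library and in all 12 other settings.

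Synaptojanin 1 (Synj1), the paralogue that strips clathrin coats at nerve terminals, had a log2 fold change of -0.01 (95% interval -0.14 to 0.13) at a mean of 8837 against 8881. Dynamin 1 (Dnm1), the neuronal GTPase that cuts vesicles from the membrane, measured 22288, 26001, 21969 and 22513 in the mutants and 25360, 23351, 22890, 22100 and 24232 in the controls. The groups overlapped, with Nestin;BrafKE/+ replicate 2 apart from the other mutants, at -0.03 (95% interval -0.18 to 0.12). Amph and Dnm3 were at 0.01 and 0.05.

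**Figure D3:**
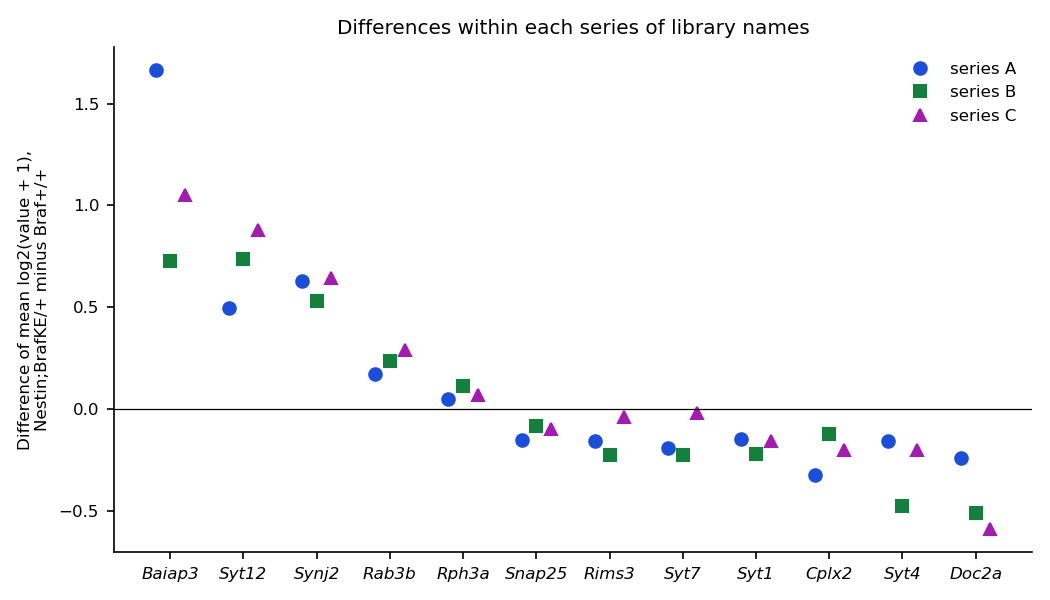
Difference of mean log2(value + 1) between Nestin;BrafKE/+ and Braf+/+ within each series of library names, for the 12 members whose groups did not overlap. Series A holds 1 mutant and 3 controls, B 2 and 1, and C 1 and 1. Separate groups fix the sign in every series, so only the size can vary here, and it varies most for Baiap3 (0.72 to 1.67).

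The differences within series rest on 1 to 3 libraries per side and were not tested one by one.

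Levels can be set side by side only per length of transcript, and on that scale the members spanned a wide range. In the controls, normalised counts per kb of exon were highest for Cplx2 (5936 ± 211, SD, n = 5), Snap25 (4688 ± 135), Vamp2 (4171 ± 157), Slc17a7 (3871 ± 232) and Syp (3509 ± 131). The lowest were Syt10 (7.95 ± 1.81), Syn3 (12.1 ± 0.62), Baiap3 (21.6 ± 5.01) and Slc17a8 (27.7 ± 5.54). The 5 members that passed fell at different places on this scale. Cplx2 was at the top in both groups and Syt4 in the middle at 757 ± 41.4, while Synj2 (124 ± 5.10), Syt12 (70.2 ± 8.62) and Baiap3 were low. In the mutants Cplx2 was at 5091 ± 203 per kb (SD, n = 4), Synj2 at 188 ± 4.11, Syt12 at 112 ± 7.67 and Baiap3 at 50.2 ± 15.9.

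**Figure D4:**
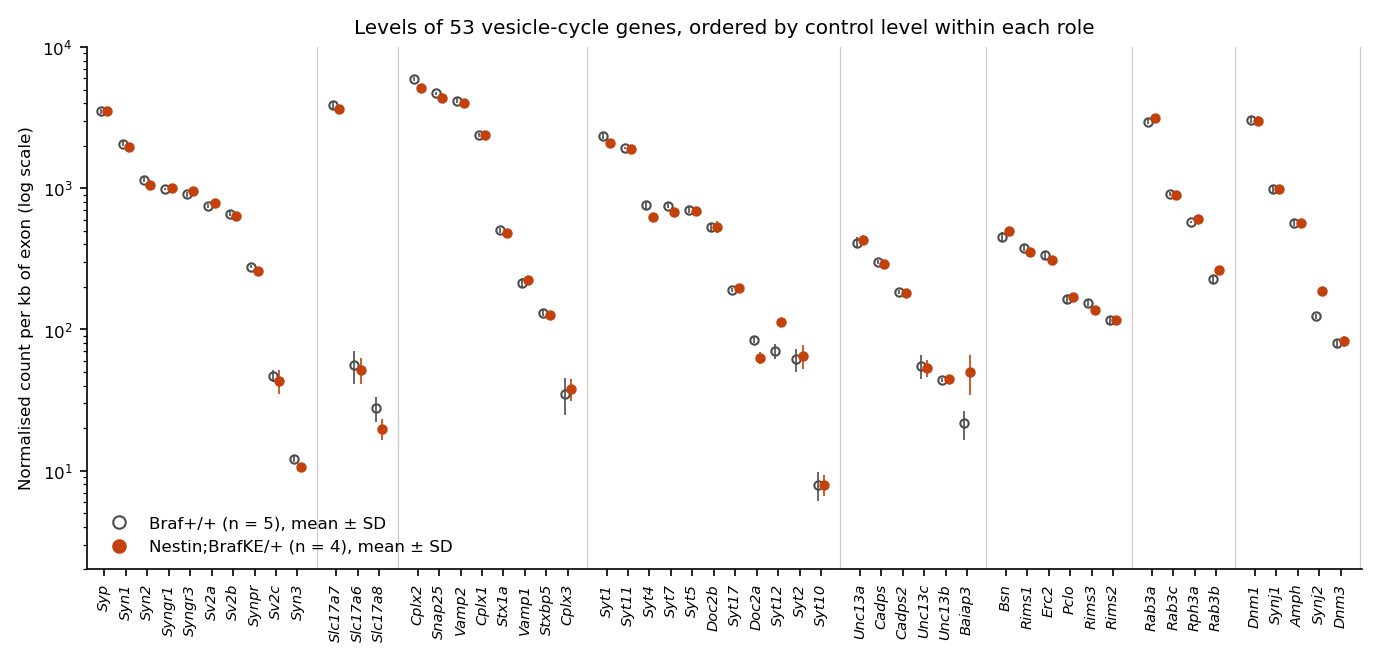
Normalised counts per kb of exon of the 53 members on a log scale, mean ± SD, ordered by control level within each role. Length is the union of all exons annotated for the gene. Open grey symbols are Braf+/+ (n = 5) and filled orange symbols Nestin;BrafKE/+ (n = 4). Grey lines part the roles, from left: vesicle membrane proteins, glutamate transporters, SNARE proteins and their clamps, synaptotagmins and Doc2 proteins, priming factors, active zone scaffolds, Rab3 proteins and rabphilin, and endocytosis proteins. Most pairs of symbols lie level, while Synj2, Syt12 and Baiap3 sit higher in the mutants and Slc17a8 (not past the threshold), Doc2a (not past it), Syt4 and Cplx2 lower.

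Paralogues that stand in for one another were also compared as log2 ratios within each library, in 4 pairs. The ratio of Cplx1 to Cplx2 was -1.47, -1.55, -1.52 and -1.59 in the mutants and -1.83, -1.75, -1.72, -1.74 and -1.69 in the controls. All mutant libraries had the higher ratio, by 0.21 on the log2 scale (two-sided exact permutation p = 0.00794, the smallest that 126 arrangements of the labels can give, adjusted over the 4 ratios 0.0317). This ratio holds the same Cplx2 values as the test above and is not separate evidence. When labels were exchanged only within series, the difference was 0.20 with an exact permutation p of 0.0417, the smallest that 24 arrangements can give, and 0.167 after adjustment.

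No difference passed for the other 3 ratios. Slc17a6 to Slc17a7 was -5.86, -6.60, -5.72 and -6.21 against -6.99, -5.91, -5.69, -5.99 and -6.01, a difference of 0.02 (exact permutation p = 0.952), and its sign depended on single libraries. Vamp1 to Vamp2 was -2.74, -2.61, -2.64 and -2.84 against -2.75, -3.02, -2.65, -2.98 and -2.68, higher by 0.11 (exact permutation p = 0.294, adjusted 0.392). Syt2 to Syt1 was -5.63, -5.56, -5.05 and -5.67 against -5.91, -5.88, -5.27, -6.08 and -5.54, higher by 0.26 (exact permutation p = 0.286, adjusted 0.392). In these 3 pairs the groups overlapped, and the differences were smaller than or near the SD within groups.

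**Figure D5:**
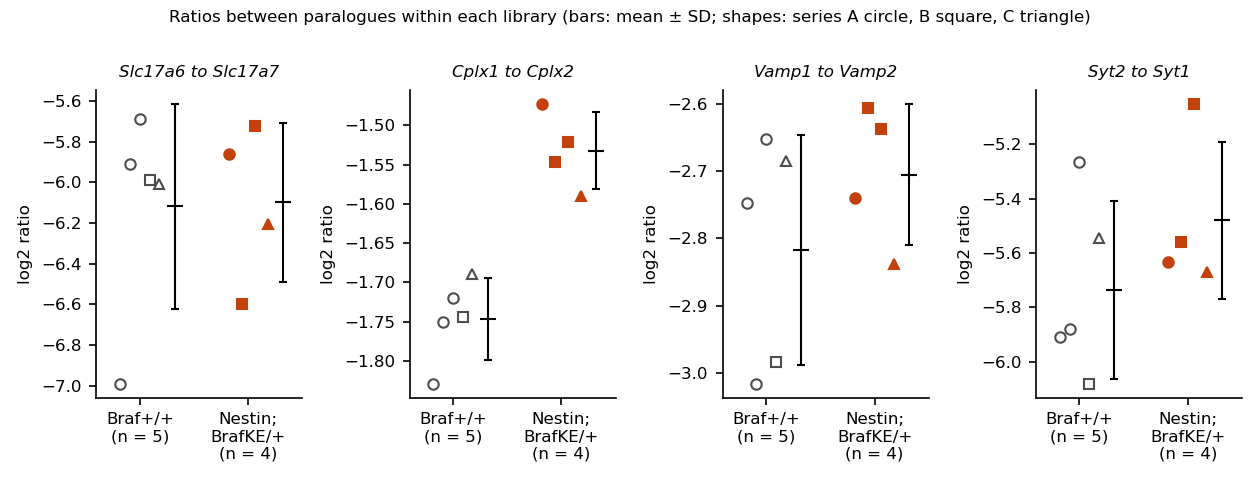
Log2 ratio between paralogues in each library, open grey for Braf+/+ (n = 5) and filled orange for Nestin;BrafKE/+ (n = 4), with mean ± SD. Axes do not start at zero and differ between panels. The groups are separate for Cplx1 to Cplx2 (-1.83 to -1.69 against -1.59 to -1.47) and overlap in the other 3 panels.

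A further 80 genes of the same machinery that are not members were listed, of which 76 had enough signal to be tested. Of these, 2 (2.63%) passed, both lower, against 2.88% of all genes. Slc30a3, which encodes the zinc transporter ZnT3 of mossy fibre vesicles, measured 668, 896, 808 and 883 in the mutants and 1255, 1108, 1309, 1035 and 1050 in the controls. The groups did not overlap, with means of 814 ± 105 (SD, n = 4) and 1152 ± 124 (SD, n = 5) and a fall estimated at -0.50 (SE 0.11, adjusted p = 0.0429). Series A, with -0.87, exceeded B (-0.28) and C (-0.25). Dropping Nestin;BrafKE/+ replicate 1 gave -0.27 (adjusted p = 0.214), and the call was also lost on dropping Nestin;BrafKE/+ replicate 3 (0.105) or any of Braf+/+ replicates 1 to 4 (0.0608 to 0.0812).

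Ppfia2, which encodes the active zone protein liprin-α2, measured 2604, 2741, 2726 and 2573 in the mutants and 3330, 3619, 2974, 3104 and 3388 in the controls. The groups were separate, with means of 2661 ± 84.5 (SD, n = 4) and 3283 ± 252 (SD, n = 5) and a fall estimated at -0.30 (SE 0.07, adjusted p = 0.0418). The call held in 1 of 9 fits that left out a library, that without Braf+/+ replicate 3 (adjusted p = 0.0297), and the largest adjusted p of the others was 0.193, without Nestin;BrafKE/+ replicate 1. It was also lost under 3 of the 12 other settings. Of the 11 subunits of the vesicular proton pump none passed, and each had a 95% interval within 0.25 of zero. Slc32a1, which encodes the vesicular GABA transporter, had a positive estimate of 0.32 that did not pass (adjusted p = 0.145, means 1538 and 1232).

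Whole tissue was measured, so fewer cells of a type and less RNA per cell cannot be told apart for any of these genes. None of 8 pan-neuronal markers passed, and their summed level was 73744 to 77805 in the mutants and 72758 to 76048 in the controls. Some markers of other cells differed between the groups. Over all genes tested 1.52% were higher and 1.36% lower. Of 10 oligodendrocyte markers 4 were higher (summed level 129016 to 139159 against 94429 to 114552). Of 10 astrocyte markers 3 were higher and 2 had negative estimates, and the summed levels overlapped (113031 to 126682 against 105696 to 119460). None of 8 microglia markers passed, though 7 had positive estimates (7229 to 7983 against 6525 to 7232). No CA2, CA3 or endothelium marker passed. Among dentate granule cell markers 3 of 8 were lower and 1 was higher, with summed levels of 10818 to 11883 and 10585 to 11561. Among CA1 markers 2 of 6 were higher, with summed levels of 14596 to 15184 and 11888 to 12852, and among interneuron markers 1 of 10 was higher, at 24021 to 25421 against 20606 to 22390. The part of these cell types in the values of the members was not tested. Some members share ground with other genes on the opposite strand, such as Synj2 with Serac1, Baiap3 with Tsr3, Doc2a with Ino80e and Ppfia2 with Acss3. The libraries were stranded, and whether the counting used the strand is not given in the sources used here.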

How the data were processed

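Stranded mRNA libraries were made from the hippocampus of 9 mice (4 Nestin;BrafKE/+ and 5 Braf+/+, grouped by the labels). Per the labels and the study's methods, the authors used Trim Galore, STAR on GRCm39 and Salmon, and adjusted for unnamed batches before DESeq2. The deposited table holds the authors' normalised signal for each gene and library. Dividing by 1 step per library (0.993 to 1.004) made 100% of them whole (tolerance 0.01), yet mt-Co1 had the same whole number, 491938, in all 9, so these are not reads and no count model was used.

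Log2(value + 1) of genes averaging 10 or more was fitted by limma (3.58.1, under R 4.3.3) on genotype and series of library names, with trended eBayes and two-sided p-values, with Benjamini-Hochberg adjustment over all 16196 genes and a threshold of 0.05. A fold change on this scale understates the change of low genes. Ratios were tested with exact permutation tests in Python 3.11.15 (scipy 1.17.1, pandas 2.3.3, matplotlib 3.10.9). Alternatives were pseudocounts of 0.5 and 8, no minimum mean or one of 50, no series term or 4 name prefixes in its place, quantile normalisation, TMM factors, the replicate number as a block, array weights, robust eBayes, leaving out each library, and a choroid plexus covariate added after the data had been seen. The fit was also run on simulated data with independent noise and no series effect, which cannot test the handling of series or batches.

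The members and lists were chosen with earlier results of these data known. Values per library are given for members past the threshold, members with an unadjusted p under 0.05 and separate groups, the member with the highest mean in each role, the members of the ratios, and other vesicle-cycle genes past the threshold; Zic1, Syn2, Slc17a8 and Rph3a were added after their values were seen. Gene positions and exon lengths came from Gencode on GRCm39, and promoters from RefSeq on GRCm38.p6, where 41 of 53 members matched by symbol.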

Additional observations from a re-analysis of the deposited data

Results flagged for a closer look

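In 7 of 118 groups of values examined, 1 library stood apart from the rest of its group, and chance alone flags about 1 group in 20. Snap25 was lowest in Nestin;BrafKE/+ replicate 1 at 42471, with the nearest mutant at 43532. Vamp2 was highest in Nestin;BrafKE/+ replicate 4 at 16351, with the nearest at 15432. Syt2 was highest in Nestin;BrafKE/+ replicate 3 at 784, with the nearest at 572, and Dnm1 was highest in Nestin;BrafKE/+ replicate 2 at 26001, with the nearest at 22513. Among controls, Syt17 was highest in Braf+/+ replicate 2 at 1578, with the nearest at 1489, and Rab3a was lowest in Braf+/+ replicate 4 at 8239, with the nearest at 9015. The log2 ratio of Slc17a6 to Slc17a7 was lowest in Braf+/+ replicate 1 at -6.99, with the nearest at -6.01. None of the 5 members with an adjusted p under 0.05 is among them.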

How the results depend on the processing

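Synj2 kept its direction and its call under all 12 settings that used all libraries and all 9 fits that left out 1, and Syt12 in all but 1 of these 21. Of the members, 5 passed as reported, 11 without the series term, 2 with 4 name prefixes, 2 with array weights, and 1 to 3 when 1 library was left out (higher members 1 to 3, against 3 as reported). Lower members, 2 as reported, were 1 with a pseudocount of 8, no minimum mean, TMM factors, quantile normalisation or the choroid plexus covariate, 7 without the series term, 0 with prefixes or array weights in limma, and 0 to 0 when 1 library was left out. The 0 counts stand beside 9 lower members with an unadjusted p under 0.05 in the reported fit. Other vesicle-cycle genes, 2 as reported, were 11 without the series term, 0 with prefixes or array weights in limma, 1 with the covariate and 0 to 2 when 1 library was left out. Over all genes 466 passed, against 2260 without the series term, 165 with prefixes, 258 with array weights and 42 to 371 when 1 library was left out (42 without Nestin;BrafKE/+ replicate 1). Leaving out Nestin;BrafKE/+ replicate 1 or Braf+/+ replicate 4 takes the only mutant of series A or the only control of series B, so that series then adds nothing to the contrast. The same holds for series C without Nestin;BrafKE/+ replicate 4 or without Braf+/+ replicate 5. The fits without either of these gave the same estimates, such as 0.025 for Cplx1, and are not separate checks.

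Same-numbered mutants and controls did not deviate together throughout (correlations of -0.39, -0.08, 0.07 and 0.41 for replicates 1 to 4). These are deviations from the means of small groups, so they cannot settle whether the numbers pair the animals. With the replicate block 4 lower members passed (Cplx2, Syt4, Doc2a and Syt1), 11 other vesicle-cycle genes and 1405 of all genes, and Cplx1 was at 0.0044.

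The ratio of Cplx1 to Cplx2 differed by 0.20 within series (adjusted p = 0.167) and by 0.19 to 0.23 when 1 library was left out. That of Slc17a6 to Slc17a7 was -0.011 within series and -0.20 to 0.19 when 1 library was left out. Members near zero changed sign. With the choroid plexus covariate Syp was at -0.026, Slc17a6 at 0.11, Vamp1 at -0.037, Syt2 at -0.0061, Unc13a at -0.053 and Rab3c at 0.031, with quantile normalisation Syp was at -0.0017, and with prefixes Dnm1 was at 0.0018. When 1 library was left out, Syp ran from -0.026 to 0.050, Slc17a6 from -0.26 to 0.030, Vamp1 from -0.038 to 0.10, Cplx1 from -0.059 to 0.025, Syt2 from -0.17 to 0.21, Unc13a from -0.012 to 0.16, Rab3c from -0.062 to 0.025 and Dnm1 from -0.10 to 0.019. None of these passed in any fit. The cause of these changes was not tested. The number of libraries limits the precision, and the depth is unknown.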
